A study of Mus musculus with 65 samples.

Results

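Progenitors of the p0 and p1 domains, sorted as one population called p0-1, were compared between cultures that had received 10 nM SAG and cultures that had received none. The 12 libraries compared, of 65 in the series, were the p0-1 libraries of days 5 and 6, with 3 libraries at each concentration on each day and hence 6 a side. All came from the mouse embryonic stem (ES) cell line HM1, whose cells had passed through a neuromesodermal progenitor stage at day 3 and were given retinoic acid from then on, in both arms. SAG activates Smoothened and was added from day 3 in place of the Sonic hedgehog (Shh) signal. Cells were fixed, stained inside the cell, and sorted as SOX2-positive, PAX6-positive and NKX6.1-negative. The gate held no protein that separates p0 and p1 from PAX6-positive progenitors lying further dorsal. The 3 replicates of a group were independent differentiations of the same line, and whether days 5 and 6 shared these is not stated. The question was whether one sorted cell type differed in expression according to the strength of the signal under which it had formed.

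In the neural tube Shh spreads from the floor plate and the notochord, and progenitors are assigned to domains by how strongly and how long they receive it. Shh relieves the inhibition of Smoothened by Patched receptors, and GLI transcription factors then activate target genes that include *Gli1*, *Ptch1* and *Hhip*. The p0 and p1 domains form where the signal is weakest, next to dorsal progenitors that express *Pax3* and *Pax7*, genes which Shh represses. Within every domain, Notch signalling through Hes proteins keeps cells as progenitors and proneural factors drive them into differentiation.

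The 12 libraries held 8646849 to 12383601 reads assigned to genes, with 11686 to 13833 genes detected. Neither measure differed between the concentrations beyond the spread of the libraries (exact permutation p = 0.45 for reads and 0.835 for genes, two-sided, labels exchanged within day, 0.95 for both after adjustment over 15 library measures). Capture was patchy at the level of single genes. Of the 13964 genes tested, 3179 had 0 reads in one library and more than 100 in another of the same group of 3. Each test therefore rests on the replicate spread, not on counting error. In the main fit that spread was pooled over all 25 groups of the 65 libraries, not taken from the 12 alone. Those groups include p2 progenitors of days 5 and 6, where *Pax3* and *Hes3* were at 0 in all 12 libraries.

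The RNAs of the sorting proteins were checked first. *Sox2*, the pan-progenitor factor, ran from 975 to 2698 normalised reads (median 1588) at 0 nM and from 1430 to 2966 (median 2048) at 10 nM. *Pax6* ran from 1989 to 2789 (median 2586) at 0 nM and from 2686 to 6208 (median 3825) at 10 nM. Each overlapped between the concentrations, with log2 changes of 0.28 (SE 0.29) and 0.67 (SE 0.54) that were not called (limma adjusted p = 1.0 for both). *Nkx2-2*, which marks p3, was at 0 in all 12 libraries, and so was *Olig1*. *Olig2*, which marks pMN, was at 0 in 10 of the 12, with 0.919 normalised reads in 1 library at 0 nM and 103 in replicate 3 at 10 nM on day 5. *Nkx6-1*, whose protein was gated against, was at 0 in all 6 libraries at 0 nM. At 10 nM it had 67.5, 1.09 and 6.09 normalised reads on day 5 and 2.27, 38.7 and 0 on day 6. Thus 5 of 6 libraries at 10 nM held *Nkx6-1* RNA, and their mean was at least 6.83-fold above 0 nM set to 3 reads per library, a difference that was not called (log2 change 2.83, SE 0.68, limma adjusted p = 0.157). *Dbx1*, the defining gene of p0, and *Irx3* were present in all 12 libraries, with values given below.

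Few genes separated the concentrations. A gene was called at a limma adjusted p below 0.01 with a change of more than 2-fold, and over both days 2 of 13964 genes (0.0143%) were called, both of them lower at 10 nM. These were *Pax3* and *Hes3*. At an adjusted p below 0.05, without a limit on the fold, 2 more genes passed, *Ccnd2* and *Edn1*. At an unadjusted p below 0.05 there were 681 genes (4.88%), 328 higher and 353 lower at 10 nM. Log2 changes had a median SE of 0.83, and for a typical gene a 2-fold difference was not detectable with these libraries. Since these are bulk samples of sorted cells, fewer cells of a kind and less RNA per cell cannot be told apart.

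*Pax3* (chromosome 1, 78101267 to 78197136, mm10) encodes a paired-box factor of dorsal neural progenitors. At 0 nM it had 133, 149 and 331 normalised reads on day 5 and 762, 283 and 350 on day 6, and at 10 nM it was at 0 in all 6 libraries. The groups did not overlap, with 133 as the lowest value in a culture without SAG. The mean at 0 nM was at least 111-fold above that at 10 nM when the latter was set to 3 reads per library. The fitted log2 change was -8.14 (SE 0.75, limma adjusted p = 3.02e-10), a size that depends on the pseudocount. The mean of *Pax3* over all 65 libraries was 33.9. It passed the minimum of 10 set for testing through the p0-1 libraries at 0 nM, where it was high. The call was kept in 21 of the 24 alternative fits that tested *Pax3*. It was lost in a fit of the p0-1 libraries alone (adjusted p = 0.0127), with edgeR (0.0159) and with the replicate block within day (0.0421), in all of which the direction was the same.

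*Hes3* (chromosome 4, 152285972 to 152291662) encodes a bHLH repressor of the Hes family, known from early neural progenitors. At 0 nM it had 124, 0 and 196 normalised reads on day 5 and 247, 94.7 and 151 on day 6. At 10 nM the 6 libraries together held 1 read, in replicate 2 of day 6. Replicate 2 of day 5 at 0 nM was at 0 as well, so the groups overlapped in that library. The ratio of 0 to 10 nM over all reads was 814, with a 95% counting interval from 146 to 32195 that leaves out the spread between libraries and is not comparable with the bound given for *Pax3*. The fitted log2 change was -5.90 (SE 0.83, limma adjusted p = 4.15e-05), and the adjusted p ran from 3.17e-09 to 0.595 over 24 alternative fits, 20 of which kept the call. It was lost in the 12 libraries alone (adjusted p = 0.384), in the p0-1 libraries alone (0.144), with edgeR (0.345) and with the replicate block within day (0.595).

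*Ccnd2* (chromosome 6, 127125709 to 127151048), which encodes cyclin D2, a regulator of entry into the cell cycle, showed the most even difference. At 0 nM its values were 9773, 9995 and 9872 on day 5 and 7885, 7212 and 8846 on day 6. At 10 nM they were 18375, 18505 and 19036 on day 5 and 16002, 14507 and 16604 on day 6. Libraries of one group lay within a narrow range and the concentrations did not overlap. The log2 change was 0.95 (SE 0.14, 95% CI 0.66 to 1.23, limma adjusted p = 1.04e-04), which is just under 2-fold, so *Ccnd2* was not called. Its log2 change stayed between 0.91 and 0.99 over 25 alternative fits, and its adjusted p, at most 0.0219, was below 0.01 in 23 of them.

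**Figure D1:**
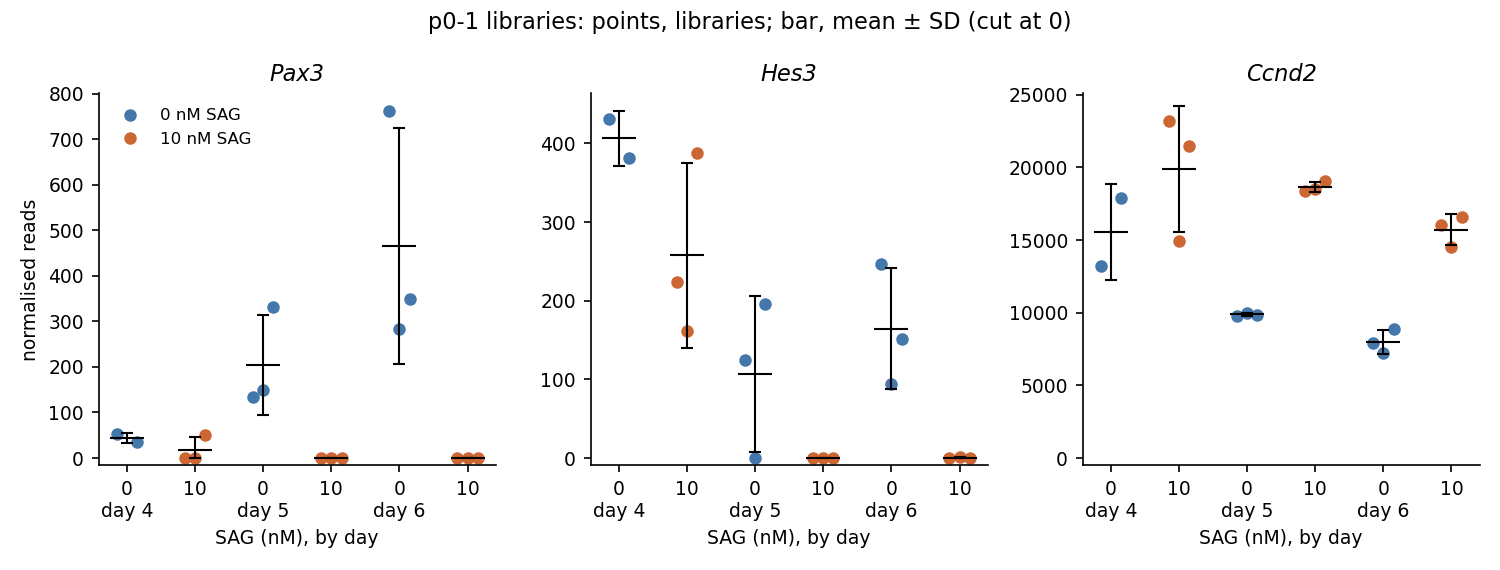
Normalised reads (vertical axes, one scale per gene) of Pax3, Hes3 and Ccnd2 in each p0-1 library, by day and SAG concentration, with points for libraries and bars for the mean ± SD of a group. On days 5 and 6 Pax3 was at 0 in every 10 nM library, Hes3 was at 0 in 5 of 6, and all 6 Ccnd2 values at 10 nM lay above all 6 at 0 nM.

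The Shh target genes were then examined, as a readout of the signal itself. The 3 read here had a higher fitted level at 10 nM, although *Hhip* turned sign with DESeq2 and edgeR. For 2 of them, *Gli1* and *Ptch1*, the unadjusted p was below 0.05, and none was called. The median log2 change of the 3 was the value of *Hhip*, 1.56, against 0 over all genes tested. *Gli1* (chromosome 10, 127329882 to 127341579) encodes a GLI factor that is itself transcribed in response to Shh. It had 69.6, 0 and 10.5 normalised reads at 0 nM on day 5 and 28.9, 57.0 and 78.1 on day 6. At 10 nM it had 233, 4.36 and 142 on day 5 and 296, 104 and 181 on day 6. All libraries at 10 nM except replicate 2 of day 5 lay above all libraries at 0 nM (log2 change 2.19, SE 0.64, limma adjusted p = 0.421). Without that library the log2 change was 3.04 and *Gli1* was called (limma adjusted p = 0.00929). Exons of *Arhgap9* overlap those of *Gli1* on the opposite strand.

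*Ptch1* (chromosome 13, 63508328 to 63573460), the Shh receptor and an inhibitor of the pathway, had 253, 613 and 869 normalised reads on day 5 and 579, 572 and 1265 on day 6 at 0 nM. With 10 nM it had 909, 648 and 1044 on day 5 and 1290, 1605 and 2305 on day 6. All 6 libraries at 10 nM lay above the 0 nM median of 596, with some overlap (log2 change 0.95, SE 0.27, limma adjusted p = 0.405). *Hhip*, which binds and sequesters Shh, ran from 0 to 204 (median 74.4) at 0 nM and from 0 to 335 (median 62.6) at 10 nM. Its log2 change of 1.56 (SE 1.28) had an interval that included 0 and turned to -0.37 with DESeq2 and -0.40 with edgeR.

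**Figure D2:**
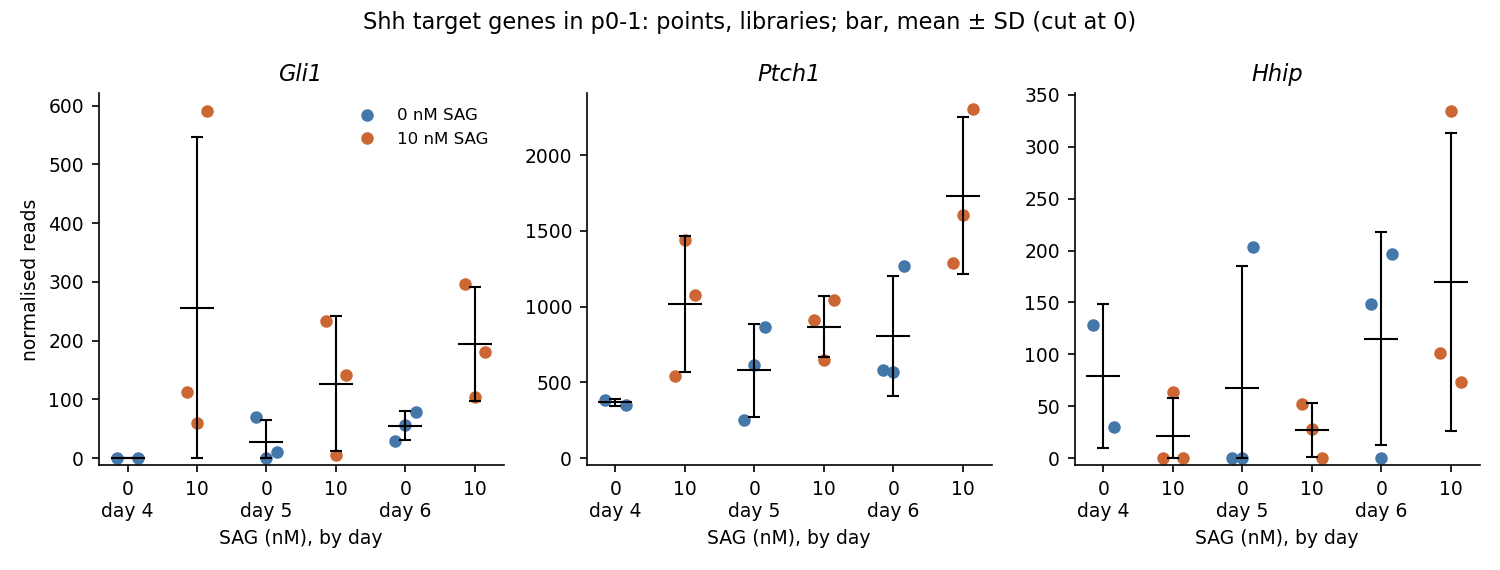
Normalised reads (vertical axes, one scale per gene) of Gli1, Ptch1 and Hhip in each p0-1 library on days 4, 5 and 6, with bars for the mean ± SD of a group. Gli1 and Ptch1 were higher in most 10 nM libraries, whereas Hhip had libraries near 0 on both sides.

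Of 20 other genes for Shh ligands, receptors, Smoothened, GLI factors and their regulators, all tested, 1 had an unadjusted p below 0.05 and none was called, and their median log2 change was -0.19. That gene was *Scube3*, a secreted protein of the family that helps release Shh. It had 1256, 665 and 909 normalised reads on day 5 and 548, 288 and 1143 on day 6 at 0 nM, and 196, 227 and 341 on day 5 and 245, 143 and 572 on day 6 at 10 nM. All 6 libraries at 10 nM lay below the 0 nM median of 787 (log2 change -1.47, SE 0.68, limma adjusted p = 0.997). *Shh* itself had reads in 1 library, with 30.5 in replicate 3 at 10 nM on day 5, the library that also held *Olig2*.

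Of the genes of the p0 and p1 domains, none of the 9 tested was called. Their median log2 change was 0.04. *Dbx1* (chromosome 7, 49631499 to 49636835) ran from 1151 to 3475 normalised reads (median 2767) at 0 nM and from 917 to 2976 (median 1874) at 10 nM, and 5 of 6 libraries at 10 nM lay below the 0 nM median (log2 change -0.31, SE 0.90, 95% CI -2.14 to 1.51). *Irx3*, *Irx5* and *Sp8*, factors expressed across these domains and beyond, had log2 changes of 0.04 (SE 0.46), 0.02 (SE 0.52) and -0.15 (SE 0.48). *Prdm12*, which defines p1, ran from 0 to 535 at 0 nM and from 0 to 997 at 10 nM. *Dbx2*, also of this list, reached 122 and 60.8 in 2 libraries at 0 nM and was at or near 0 in the others. At 10 nM *Dbx2* had 34.8, 0 and 8.12 on day 5 and 298, 141 and 312 on day 6, so its high values were those of day 6 (log2 change over both days 3.03, SE 1.57, limma adjusted p = 0.999). *Sp9* had reads in 2 libraries, both at 10 nM on day 6.

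The 2 genes of this list with an unadjusted p below 0.05 were members of the PR domain family, with fitted changes of opposite sign. *Prdm8* (chromosome 5, 98180869 to 98187448), expressed in several ventral progenitor domains, had 7.54, 0 and 43.2 normalised reads on day 5 and 57.7, 66.2 and 28.4 on day 6 at 0 nM. At 10 nM it had 183, 70.9 and 588 on day 5 and 630, 685 and 645 on day 6. The 6 libraries a side did not overlap (log2 change 4.26, SE 1.14, limma adjusted p = 0.277), and the gene was called with DESeq2 (adjusted p = 4.59e-04), the lowest of a range that reached 0.846. Exons of *A730035I17Rik* overlap those of *Prdm8* on the opposite strand. *Prdm13*, a factor best known from dorsal progenitors, had 175, 487 and 172 on day 5 and 37.0, 303 and 241 on day 6 at 0 nM. At 10 nM *Prdm13* had 30.5, 153 and 0 on day 5 and 0, 135 and 17.1 on day 6, all below the 0 nM median of 208 (log2 change -3.62, SE 0.96, limma adjusted p = 0.264). The mean of *Prdm13* over all 65 libraries was 28.9. It passed the minimum of 10 set for testing through the p0-1 libraries at 0 nM, where it was high.

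Besides *Pax3*, dorsal progenitor genes had low and uneven values. Of 20 dorsal genes, 8 passed the minimum mean, *Pax3* through the 0 nM libraries, and 1 of these (*Pax3*) was called. Of the 8, 7 had a lower fitted level at 10 nM. Their median log2 change was -1.13, against 0 over all genes tested. The summed signal of all 20 ran from 226 to 1368 (median 576) at 0 nM and from 0.943 to 481 (median 96.4) at 10 nM. *Pax7*, the close relative of *Pax3*, had 54.5, 0 and 87.5 normalised reads on day 5 and 112, 0 and 116 on day 6 at 0 nM, and 68.6, 0 and 0 on day 5 and 9.1, 0 and 1.14 on day 6 at 10 nM. *Olig3*, of the most dorsal domains, had reads in 3 libraries at 0 nM (82.2 on day 5, 40.6 and 23.3 on day 6), *Msx1* in 3 (64, 0.919 and 14.2, all on day 6) and *Gsx2* in 1 (44.2 on day 6), and none of these had a read at 10 nM. *Msx3*, *Gsx1* and *Atoh1* were at 0 in all 12 libraries. Of the tested members, *Gdf7* had a higher fitted level at 10 nM. *Zic2*, a zinc finger factor, had reads in 5 libraries at 0 nM (up to 85.4) and in 2 at 10 nM (up to 43.7), and was not called (-2.11 on the log2 scale, SE 1.08, limma adjusted p = 0.999). Its relative *Zic1* was highest at 10 nM, where it had reads in 2 libraries, up to 191, against at most 42.2 at 0 nM. *Bmper*, a modulator of BMP signalling that did not pass the minimum mean, also reached 207 at 10 nM, with reads in 2 libraries there and in none at 0 nM. *Zic1* and *Bmper*, given after their values were seen, hold the highest values of the list at 10 nM. The share of dorsal cells in the sorted population was not measured, and its part in the *Pax3* difference was not tested.

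Markers of more ventral progenitors were mostly at or near 0. Of 13 such genes 12 were tested, 2 had an unadjusted p below 0.05, none was called, and their median log2 change was 0.32. The 2 were *Nkx6-1*, given above, and *Slit1*, an axon guidance ligand, which ran from 92.0 to 735 normalised reads at 0 nM and from 0 to 350 at 10 nM (log2 change -2.48, SE 0.98, limma adjusted p = 0.898). *Nkx6-2* ran from 0 to 268 on both sides. At 0 nM it had 5.03, 268 and 4.22 on day 5 and 0, 117 and 65.9 on day 6. At 10 nM it had 0, 0 and 9.14 on day 5 and 268, 124.5 and 115 on day 6. *Foxn4*, of p2, had 76.7 in 1 library at 0 nM and 84.9 and 1.14 in 2 at 10 nM. *Foxa2*, of the floor plate and p3, had 21.9 in 1 library at 0 nM and 138 in replicate 3 of day 5 at 10 nM, again the library with *Olig2* and *Shh*. *Nkx2-9* was at 0 in all 12.

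Genes of Notch signalling and neurogenesis differed among themselves in direction. Of 22, 20 were tested, 3 had an unadjusted p below 0.05 with a higher level at 10 nM and 2 with a lower level, none was called, and their median log2 change was -0.26. *Hes5* (chromosome 4, 154960923 to 154962371), the main Notch effector of spinal cord progenitors, had 3046, 5078 and 1227 normalised reads on day 5 and 5151, 4455 and 3775 on day 6 at 0 nM. At 10 nM *Hes5* had 7629, 5792 and 6192 on day 5 and 8557, 10028 and 7743 on day 6. The libraries did not overlap, and the log2 change of 1.13 (SE 0.27, 95% CI 0.59 to 1.68) was not called (limma adjusted p = 0.157, with a range of 0.0234 to 0.825 over 25 alternative fits). The fitted changes of *Hes5* and *Hes3*, members of one family, thus had opposite signs.

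The promoter of *Hes5* is shown because RBPJ, the DNA-binding partner of Notch, is known to act there. The RefSeq window (GRCm38.p6, chr4:154960673-154960972, plus strand, 250 bases before to 50 after the start of the gene) is given 5′ to 3′, with matches to TGGGAA, the core of the RBPJ motif, on either strand in capitals:
Hes5: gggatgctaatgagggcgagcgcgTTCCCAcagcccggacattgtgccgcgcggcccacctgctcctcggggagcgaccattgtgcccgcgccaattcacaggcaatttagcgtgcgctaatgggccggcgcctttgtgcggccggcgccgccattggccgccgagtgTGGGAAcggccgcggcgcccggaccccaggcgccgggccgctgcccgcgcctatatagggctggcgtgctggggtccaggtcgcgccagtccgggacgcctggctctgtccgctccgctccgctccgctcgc
The 2 matches begin 226 and 82 bases before the start, and 8397 of 32851 promoter windows of this length (25.6%) hold at least 1. No match was found in the windows of *Jag1*, *Jag2*, *Hes6* and *Neurog2*. The GLI motif GACCACCCA, present in 83 of the 32851 windows (0.253%), had no match on either strand in those of *Ptch1*, *Hhip*, *Prdm8*, *Edn1* or *Hes5*. The *Ptch1* window (chr13:63565686-63565985, minus strand) lies inside the interval given above for that gene, not at its start there. The motifs did not overlap, a match is no evidence of binding, and the lack of one says only that these letters are not in the window.

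*Neurog2*, a proneural factor of ventral and intermediate progenitors, had 72.9, 0 and 19.0 normalised reads on day 5 and 16.2, 85.5 and 97.3 on day 6 at 0 nM, and 211, 122 and 190 on day 5 and 285, 147 and 268 on day 6 at 10 nM. The sides did not overlap (log2 change 3.00, SE 0.89, limma adjusted p = 0.47). *Jag1* and *Jag2*, both ligands of Notch, had fitted changes of opposite sign. *Jag1* ran from 551 to 3910 (median 1388) at 0 nM and from 2182 to 7181 (median 4365) at 10 nM, with all 6 libraries at 10 nM above the 0 nM median (log2 change 1.48, SE 0.46, limma adjusted p = 0.559). *Jag2* ran from 214 to 1064 (median 366) at 0 nM and from 25.1 to 268 (median 188) at 10 nM (log2 change -1.66, SE 0.62, adjusted p = 0.769). *Hes6*, which promotes neuronal differentiation, ran from 569 to 1665 (median 1151) at 0 nM and from 273 to 926 (median 682) at 10 nM, lower in 6 of 6 libraries than the 0 nM median (log2 change -0.87, SE 0.30, limma adjusted p = 0.723).

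**Figure D3:**
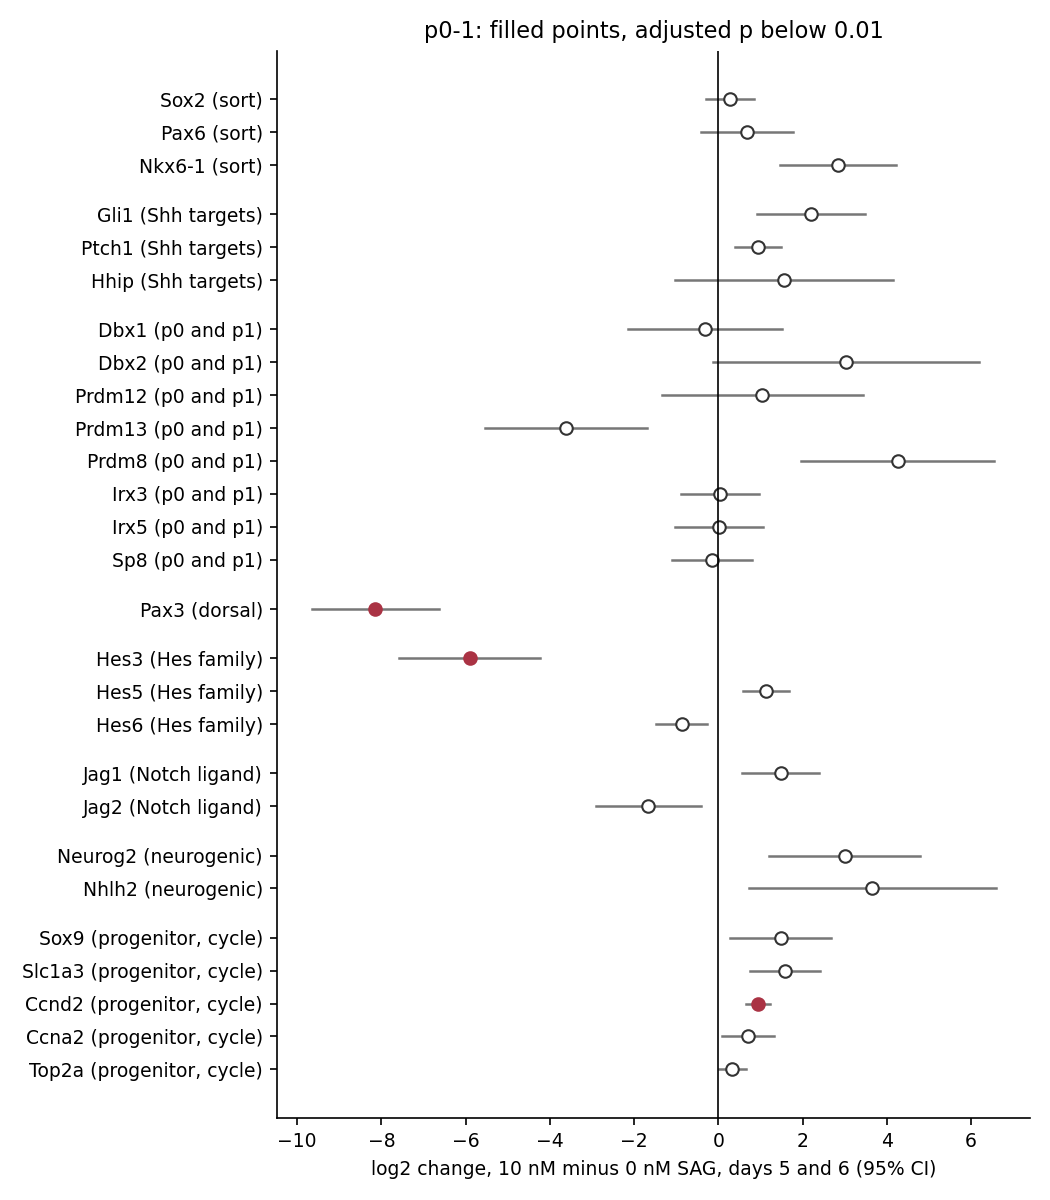
Log2 change between 10 and 0 nM SAG over days 5 and 6 (horizontal axis, with the 95% CI as a line) of named genes in p0-1, grouped by list. Filled points have a limma adjusted p below 0.01, namely Pax3, Hes3 and Ccnd2, while Gli1, Ptch1, Prdm8, Prdm13, Hes5 and others have intervals that leave out 0 without passing the adjustment.

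Neuronal genes overlapped between the concentrations for the most part. All 20 pan-neuronal genes were tested, 1 had an unadjusted p below 0.05, and their summed signal ran from 997 to 5245 (median 3362) at 0 nM and from 1143 to 4720 (median 2512) at 10 nM. The gene was *Nhlh2*, a bHLH factor of newly born neurons, with 0, 0 and 0 normalised reads on day 5 and 4.51, 118 and 129 on day 6 at 0 nM, and 0, 114 and 123 on day 5 and 323, 398 and 183 on day 6 at 10 nM (log2 change 3.66, SE 1.46, limma adjusted p = 0.898). *Tubb3* had medians of 546 and 223 at 0 and 10 nM, *Dcx* of 196 and 71.8, *Elavl3* of 168 and 191, and *Stmn2* of 82.9 and 48.5, all overlapping. Of the 13 genes of V0 and V1 neurons, which arise from p0 and p1, 5 were tested, and of 22 genes of other neurons 11. No gene of either list had an unadjusted p below 0.05.

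Among genes of progenitors, 3 of 18 had an unadjusted p below 0.05, all higher at 10 nM, with a median log2 change of 0.08. *Slc1a3*, a glutamate transporter of radial glia, had 120, 212 and 176 normalised reads on day 5 and 711, 701 and 1498 on day 6 at 0 nM. At 10 nM it had 742, 719 and 770 on day 5 and 1370, 1200 and 3681 on day 6. Within day 5 the sides lay far apart and within day 6 they overlapped (log2 change 1.59, SE 0.41, limma adjusted p = 0.258), and the gene was called with DESeq2 (adjusted p = 0.00909). *Sox9*, a factor of neural and glial progenitors, had medians of 146 and 407 (log2 change 1.48, SE 0.60), and *Nfia*, which acts at the onset of gliogenesis, of 65.8 and 114 (1.85, SE 0.92). Neither was called (limma adjusted p = 0.898 and 0.999). The summed signal of the list had a lower median at 10 nM, 20771 against 24957, with overlapping ranges (exact permutation p = 0.165, 0.825 after adjustment).

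The cell cycle list held *Ccnd2* and 24 other genes, all tested. Of the 25, 18 had a higher and 7 a lower fitted level at 10 nM, with a median log2 change of 0.19, and 3 had an unadjusted p below 0.05, all higher. The others were *Ccna2*, the S and G2 phase cyclin (medians 824 and 1317, log2 change 0.70, SE 0.31), and *Top2a*, a topoisomerase of dividing cells (medians 6116 and 7183, log2 change 0.33, SE 0.16), neither of them called (limma adjusted p = 0.969 and 0.999). The summed signal of the list ran from 43037 to 58229 at 0 nM and from 61303 to 69409 at 10 nM without overlap. Its exact permutation p was 0.005, the smallest that 400 arrangements allow, and 0.075 after adjustment over 15 library measures. Without *Ccnd2* the sums overlapped, at 35826 to 50344 (median 43772) and 46723 to 50373 (median 47182).

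Among other signalling genes the lists gave few low p-values. Of 27 BMP and Wnt genes tested, 2 had an unadjusted p below 0.05 and none was called. *Sfrp2*, a secreted Wnt modulator, had medians of 1538 and 3139 normalised reads (log2 change 0.85, SE 0.24, limma adjusted p = 0.352), and *Smad7*, an inhibitor of BMP and TGF-beta signalling, of 95.5 and 2.72 (log2 change -4.12, SE 1.46, adjusted p = 0.765). Of 23 retinoid and FGF genes tested the 1 with an unadjusted p below 0.05 was *Rarb*, a retinoic acid receptor and target (medians 931 and 1549, log2 change 0.83, SE 0.36, limma adjusted p = 0.969). Of 21 Hox and axial genes tested there was none.

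Marker lists of other cells gave 1 gene at an unadjusted p below 0.05 in 26 tested, *Klf4*, which had 0 to 1.8 normalised reads at 0 nM and 0 to 158 at 10 nM. The summed signals of mesoderm, neural crest, pluripotent, endoderm, vascular and blood, and fibroblast genes overlapped between the concentrations, with exact permutation p-values from 0.15 to 0.94 and adjusted values from 0.825. For neural crest the sums ran from 5328 to 10378 at 0 nM and from 5287 to 9483 at 10 nM. Of the 13 stress genes 12 were tested, none with an unadjusted p below 0.05.

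Beyond the lists, genes were named where the 6 libraries at one concentration did not overlap the 6 at the other. This held for 35 of 13964 genes (0.251%), 19 higher and 16 lower at 10 nM. How many genes would separate in this way under exchanged labels was not tested. Lack of overlap is how these genes were picked, so it is no further evidence about them. Apart from *Pax3*, none of these was called. Of the genes higher at 10 nM, *H2-Ke6*, a steroid dehydrogenase gene in the MHC region, had 2030, 1234 and 1547 normalised reads on day 5 and 1496, 1286 and 1537 on day 6 at 0 nM. At 10 nM it had 3768, 2677 and 2802 on day 5 and 2989, 2197 and 2643 on day 6 (log2 change 0.90, SE 0.20, limma adjusted p = 0.0866). On day 5 its libraries spread more widely, relative to their mean, than those of *Ccnd2*. *AI429214*, a gene with no assigned function known here, was at 0 in all 6 libraries at 0 nM and had 233, 238 and 169 on day 5 and 31.8, 66.0 and 564 on day 6 at 10 nM. This was at least 76.9-fold higher against 3 reads per library (limma adjusted p = 0.136). The gene was called with DESeq2 (adjusted p = 1.06e-11) and in the 12 libraries alone (0.00539).

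Of the 19 genes of this kind that were higher at 10 nM, the 12 with the lowest p were named. Besides those described above these were *1700023D09Rik*, *Tmem256*, *Glmn*, *Adcy3*, *2700062C07Rik* and *Fchsd2*. Their medians at 0 and 10 nM were 0 and 37.4 for *1700023D09Rik* and 375 and 711 for *Tmem256*. They were 62.5 and 296 for *Glmn*, and 181 and 404 for *Adcy3*, an adenylyl cyclase of the primary cilium. For *2700062C07Rik* and *Fchsd2* they were 54.1 and 207 and 46.8 and 249. The limma adjusted p-values ran from 0.30 to 0.83. Exons of *Stx5a*, *Cenpo* and, for *Glmn*, *Rpap2* and *1700028K03Rik* overlap these genes on the opposite strand. The mean of *1700023D09Rik* over all 65 libraries was 11.8. It passed the minimum of 10 set for testing through the p0-1 libraries at 10 nM, where it was high.

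Of the genes lower at 10 nM, *Edn1* (chromosome 13, 42301476 to 42307990), which encodes the signalling peptide endothelin 1, had 4.19, 75.7 and 132 normalised reads on day 5 and 55.0, 52.4 and 65.9 on day 6 at 0 nM. At 10 nM it was at 0 in all 6 libraries, at least 21.3-fold lower against 3 reads per library (limma adjusted p = 0.0244). It was called with DESeq2 (adjusted p = 6.09e-04), with quantile normalisation (0.00832) and without replicate 1 of day 5 at 0 nM (0.00517). *Nab2*, a corepressor of EGR factors, was also at 0 in all 6 libraries at 10 nM and had 9.92 to 65.4 at 0 nM, at least 12.3-fold more (limma adjusted p = 0.12), and was called in the 12 libraries alone (0.00539). *Fes*, a tyrosine kinase, had 12.9 to 360 at 0 nM and 1 read in all at 10 nM (limma adjusted p = 0.12, 8.22e-08 with DESeq2), and *Stk10*, a serine/threonine kinase, 35.5 to 157 against 0 to 16.2 (adjusted p = 0.564). Exons of *Stat6* overlap those of *Nab2* on the opposite strand.

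More abundant genes of this kind had smaller fitted changes. *Igfbp2*, an insulin-like growth factor binding protein, had medians of 4164 and 2346 normalised reads at 0 and 10 nM (log2 change -0.92, SE 0.32), and *Itsn1*, an endocytic scaffold, of 806 and 441 (-0.82, SE 0.30). *Col2a1*, the type II collagen gene, had 1179, 1299 and 1338 on day 5 and 2117, 957 and 1880 on day 6 at 0 nM, and 0, 317 and 292 on day 5 and 497, 426 and 492 on day 6 at 10 nM (log2 change -3.27, SE 1.25). *Cep170b*, a relative of the centrosomal *Cep170*, had medians of 792 and 195 (-1.81, SE 0.81) and was called with DESeq2 (adjusted p = 3.08e-04). *Ctnna1*, the alpha-catenin gene, and *Rexo1* had log2 changes of -0.55 (SE 0.24) and -0.64 (SE 0.28). The limma adjusted p-values of these 6 genes ran from 0.727 to 0.972.

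Single days gave as few calls. On day 5, 1 gene was called (0.00716%), *Pax3*, with 798 genes at an unadjusted p below 0.05. The count rose to 31, of which 28 were higher at 10 nM, without replicate 3 at 0 nM, to 4 without replicate 1 and to 3 without replicate 2 of the same group. On day 6, 2 genes were called (0.0143%), *Pax3* and *Hes3*, but *Hes3* lost its call without any one of the 6 libraries. *Pax3* kept it in all of these fits, and was joined by *Hpgd* without replicate 3 at 10 nM. The difference between the days was tested as an interaction, with 0 genes called by limma (0.0%), 544 at an unadjusted p below 0.05 and 0 called with a pseudocount of 10. *Pax3* had log2 changes of -7.56 on day 5 and -8.73 on day 6, *Ccnd2* of 0.92 and 0.98, *Hes5* of 1.28 and 0.98, and *Gli1* of 2.59 and 1.79.

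**Figure D4:**
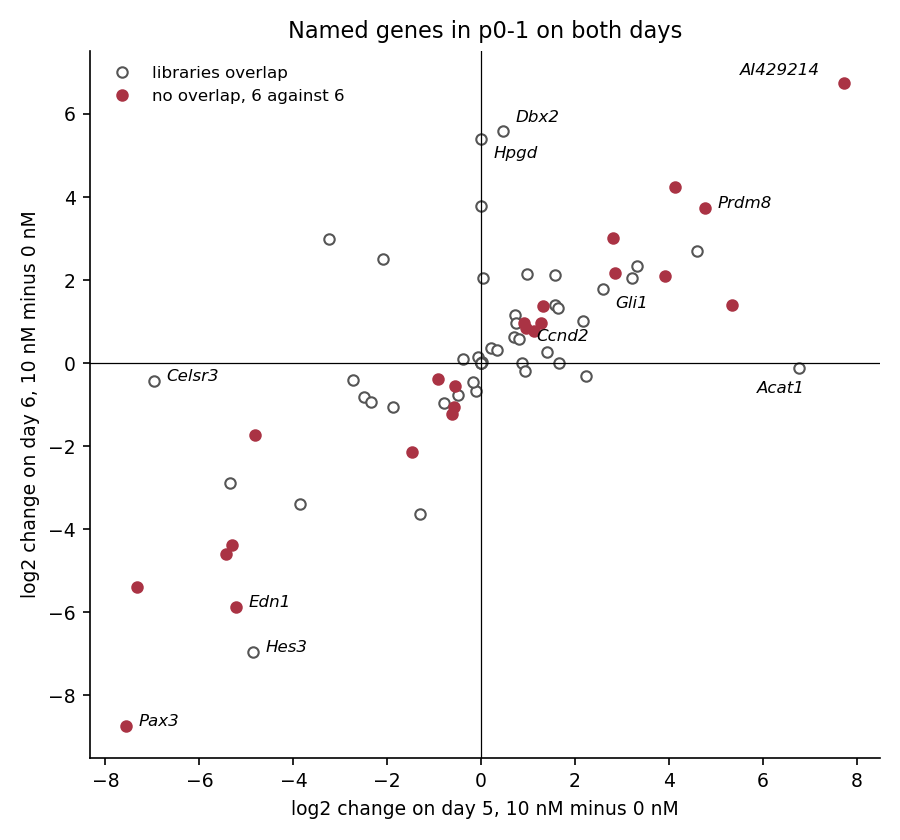
Log2 change between 10 and 0 nM SAG on day 5 (horizontal axis) and day 6 (vertical axis) of the tested named genes, which the rule for naming required in part to have the same sign on both days. Filled points are genes whose 6 libraries a side did not overlap, among them Pax3, with -7.56 and -8.73, whereas Celsr3, Acat1 and Hpgd lie near 0 on one of the days.

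The p0-1 libraries of day 4, 1 day after SAG was added, were not part of the comparison above and comprised 2 at 0 nM and 3 at 10 nM. There 1 gene was called (0.00716%), *Gli1*, and 298 genes (2.13%) had an unadjusted p below 0.05. *Gli1* was at 0 in both libraries at 0 nM and had 113, 60.2 and 591 normalised reads at 10 nM, at least 84.6-fold more against 3 reads per library (log2 change 7.33, SE 1.01, limma adjusted p = 4.29e-05). The count of calls was 0 with a pseudocount of 10 (282 genes at an unadjusted p below 0.05) and 0 without replicate 3 at 0 nM (162 genes), and 2 without replicate 2 at 0 nM. *Ptch1* had 385 and 349 at 0 nM and 545, 1438 and 1076 at 10 nM, without overlap (log2 change 1.36, limma adjusted p = 1.0). The genes that separated the concentrations later were less far apart on day 4. *Pax3* had 52.5 and 35.6 at 0 nM and 0, 0 and 50.6 at 10 nM. *Hes3* had 431 and 382 at 0 nM and 224, 161 and 388 at 10 nM, so at 10 nM it was well detected on day 4 and nearly absent on days 5 and 6. *Ccnd2* had 13238 and 17901 at 0 nM and 23223, 14964 and 21451 at 10 nM, with overlap. *AI429214* had 140 and 234 at 0 nM and 0, 52.8 and 0 at 10 nM, the reverse of days 5 and 6.

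Some of these genes were read in the other sorted types on days 5 and 6. Of these types p2, at 10 and 100 nM, is the ventral neighbour and was sorted from 10 nM cultures too. *Pax3* and *Hes3* were at 0 in all 12 p2 libraries, as *Pax3* was in p0-1 at 10 nM. *Ccnd2* ran from 13535 to 21743 (median 16839) in the 6 p2 libraries at 10 nM, a range that held 6 of 6 p0-1 libraries at 10 nM and none at 0 nM. *Hes5* ran from 6786 to 11844 in these p2 libraries, above all 6 p0-1 libraries at 0 nM, and *Prdm8* from 253 to 2253. Not every gene lay this way. *Jag1* had a median of 1739 in p2 at 10 nM, against 1388 and 4365 in p0-1 at 0 and 10 nM. In pMN *Ccnd2* ran from 14421 to 29751 and *Hes5* from 6987 to 10681. In p3 at 500 nM they ran from 7283 to 15597 and from 1246 to 5151, ranges that overlap those of p0-1 at 0 nM. In p3 at 100 nM *Ccnd2* ran from 11683 to 20716, above all 6 p0-1 libraries at 0 nM. *Hes5* ran there from 2985 to 6450, again with overlap. *Gli1* and *Ptch1*, with medians of 523 and 1922 in p2 at 10 nM, were higher than the medians of 162 and 1167 in p0-1 at 10 nM. *Dbx1*, with a median of 141 in p2 at 10 nM, set both p0-1 groups apart from p2. These levels are descriptions, and cell type and concentration were not separated by a test.

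**Figure D5:**
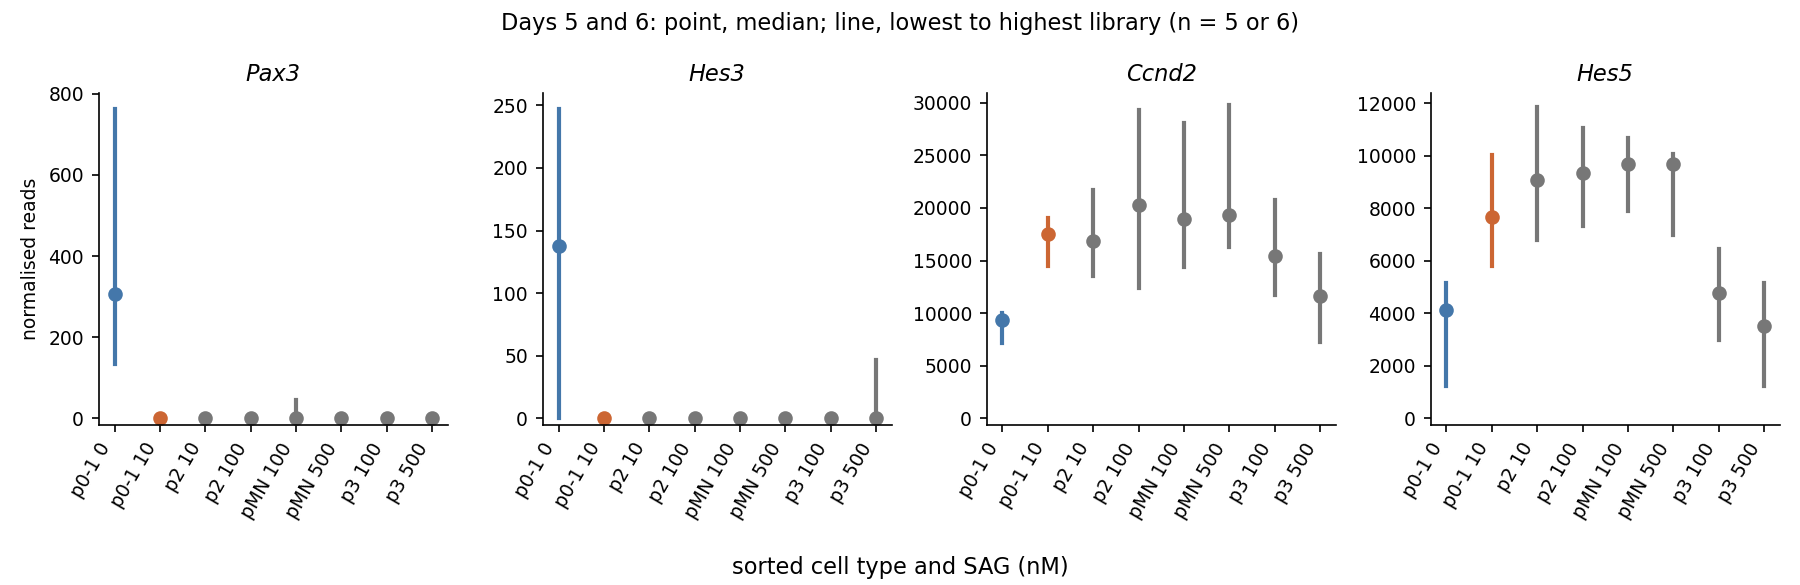
Normalised reads (vertical axes, one scale per gene) of Pax3, Hes3, Ccnd2 and Hes5 on days 5 and 6 in each sorted type and SAG concentration, with points for medians and lines from the lowest to the highest library. Pax3 and Hes3 had high values in p0-1 at 0 nM, and p0-1 at 10 nM lay within the p2 range for Ccnd2.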

How the data were processed

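The series measured RNA of fixed, stained and sorted mouse ES cell-derived progenitors (CaTS-RNA-seq), prepared with SMART-Seq HT and Nextera XT. The authors aligned reads with STAR to mm10 plus ERCC sequences, counted them per gene with featureCounts without duplicates, and removed libraries that failed quality control. Whether the counting used the strand is not given in the sources used here. The deposited values are a signal, read counts divided by 1 size factor per library, and all 834400 values above 0 were whole multiples of the value of 1 read (100% within 0.01 reads).

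From these values limma 3.58.1 (R 4.3.3) was fitted with an intensity trend to log2(value + 1) of the 13964 of 25239 genes with a mean of at least 10 over 65 libraries, with a mean for each of 25 groups. The contrast was the average of the differences within day 5 and within day 6. This scale understates the change of low genes. Adjusted p-values are Benjamini-Hochberg values over all genes tested. The limma fit of the contrast over both days was tested on simulated data with known changes, and the other fits were not. DESeq2 1.42.0 and edgeR 4.0.16 were run on the recovered reads, which for the 12 libraries numbered 8646849 to 12383601. Reads carry no molecular identifiers, so counting intervals and floors cover counting error only.

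The comparison, the gene lists and the rules for naming were chosen with earlier results of these data known. Named were all genes of the sorting, Shh target, and p0 and p1 lists, genes of the other lists that were called, had an unadjusted p below 0.05 or define a list, and up to 12 genes a direction that were called or, failing that, had no overlap of libraries and the same sign on both days. Some genes of these lists are not reported here and enter no list count. All list genes were found, 1 through a synonym (*Adrbk1* as *Grk2*). Positions are those of the deposited mm10 annotation, and promoter windows come from RefSeq (GRCm38.p6).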

Additional observations from a re-analysis of the deposited data

How the results depend on the processing

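The count of 2 called genes over both days stayed at 2 or 3 in the fits that left out 1 library, and was 2 or 3 under another pseudocount, a minimum mean of 1, TMM scaling, quantile normalisation, array weights, the 12 libraries alone and the replicate block over all libraries. The genes were not always the same. *Pax3* was called in each of these fits and *Hes3* in each but that of the 12 libraries alone, where *AI429214* and *Nab2* were called instead, while *Edn1*, *Gli1*, *Hpgd* or *Fgfbp3* was the third gene in others. It was 0 with a minimum mean of 100 (472 genes at an unadjusted p below 0.05), which removed *Pax3* and *Hes3* before testing, 0 with the p0-1 libraries alone (774) and 0 with edgeR (559), 12 with DESeq2 (5 higher at 10 nM), and 4 at an adjusted p below 0.05 without a fold limit. The replicate block within day gave 1 gene, *Moxd1*, with adjusted p-values of 0.0421 for *Pax3* and 0.595 for *Hes3*. Libraries of the same day and number deviated together, with r from 0.016 to 0.095 in 6 pairs. For different numbers of the same day r ran from -0.086 to 0.0092 in 12 pairs. Within a day, 12 of 12 libraries correlated best with their own number. Between days 5 and 6, pairs of the same number had r from -0.0068 to 0.122 (median 0.036, 12 pairs). Pairs of different numbers had r from -0.109 to 0.030 (median -0.021, 24 pairs). Whether libraries of the same number on both days shared a differentiation was not tested, so the 6 a side may be fewer independent units. The main fit and the permutation tests did not use the replicate numbers and treated the libraries as independent. The cause of the shifts in the count was not tested. Without 1 library the count ran from 1 to 31 on day 5, from 1 to 2 on day 6 and from 0 to 2 on day 4, where a lone library at 0 nM was assumed to vary like the other groups. The 6 libraries of a day alone gave 0 on day 5 (508 at an unadjusted p below 0.05) and 0 on day 6 (545), and a pseudocount of 10 gave 0 on day 4.

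Signs turned for 9 of 66 named genes, none of which had an unadjusted p below 0.05 in the values reported above. With array weights the change was 0.025 for *Tubb3*, 0.74 for *Nkx6-2* and -0.00692 for *Foxn4*, and for *Nkx6-2* it was 0.11 with a pseudocount of 10 and 0.039 with quantile normalisation. *Hhip* turned to -0.37 with DESeq2 and -0.40 with edgeR. In the fits that left out 1 library the log2 change ran from -0.16 to 1.52 for *Olig2*, from -1.13 to 0.48 for *Tubb3*, from -0.31 to 2.42 for *Prdm12*, from -0.073 to 0.16 for *Irx3* and from -0.13 to 0.18 for *Irx5*. It ran from -1.20 to 0.81 for *Nkx6-2*, from -0.77 to 1.25 for *Foxn4* and from -0.75 to 1.19 for *Foxa2*.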

Other observations

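Among the genes with the widest gap between day 5 and day 6, *Celsr3*, *Acat1* and *Hpgd* are given here as values. They were chosen after their values were seen, and the test of the difference between the days called none of them (limma adjusted p = 0.789 for each). *Celsr3*, an atypical cadherin of the planar cell polarity system, had 218, 256 and 72.7 normalised reads at 0 nM on day 5 and 0, 1.09 and 0 at 10 nM. On day 6 it had 81.2, 386 and 176 at 0 nM and 137, 113 and 142 at 10 nM, so the sides lay apart on day 5 and overlapped on day 6 (log2 changes of -6.97 and -0.44). *Acat1*, a mitochondrial acetyl-CoA acetyltransferase, had 0, 0 and 65.4 at 0 nM and 447, 562 and 340 at 10 nM on day 5. On day 6 *Acat1* ran from 337 to 524 at 0 nM and from 300.2 to 585 at 10 nM, again with overlap (log2 changes of 6.77 and -0.12). *Hpgd*, which degrades prostaglandins, had reads in 2 of the 12 libraries, 119 and 620 at 10 nM on day 6. Its mean over all 65 libraries, 12.9, passed the minimum of 10 through these 2.

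*Eno1*, the glycolytic enzyme enolase 1, was also chosen after its values were seen. At 0 nM it had 15189, 16143 and 14959 normalised reads on day 5 and 11069, 7779 and 12176 on day 6, and at 10 nM 12519, 9584 and 11110 on day 5 and 7404, 4069 and 7061 on day 6. All libraries at 10 nM lay below all at 0 nM of the same day, while over both days the sides overlapped (log2 change -0.63, SE 0.14, limma adjusted p = 0.133). *Eno1* has a near-identical copy, *Eno1b*, and reads from the pair could not be told apart with certainty.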
